A study of Danio rerio with 8 samples.

Results

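The 4 wild-type (WT) libraries of a zebrafish eye RNA-seq series are described here on their own, as a baseline and as a measure of how far WT pools differ from each other. They were chosen by their label, genotype wildtype, and make up 4 of the 8 libraries in all. The other 4 came from *flrt2* mutants and were not used. About 40 eyes went into the pool of each WT library, from embryos at 36 h post fertilization (hpf). The titles of the 4 libraries are AB12_16, AB1_19, AB1_8 and AB1_8_ysy, and all values below are given in that order. The labels name the tissue as retina and the Methods name eyes. The Methods give the age in hpf, and the Results text gives it in days. The library kit is TruSeq in the labels and NEBNext Ultra in the Methods. None of the sources states what the numbers and the letters ysy in the titles stand for, or whether the pools came from separate clutches, so the spread between the 4 libraries may be partly technical.

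At this stage the zebrafish eye cup holds a sheet of dividing retinal progenitors from which the first neurons leave the cell cycle. Ganglion cells are born first, amacrine and horizontal cells follow, and photoreceptors are specified later and switch on their opsins last. Around the retina lie a lens whose fibers fill with crystallins, a pigment epithelium that makes melanin, periocular mesenchyme from the neural crest, blood vessels and a covering of skin. An RNA pool of whole eyes sums all of these tissues. In such a pool, fewer cells of a type and less RNA per cell cannot be told apart.

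The deposited values are read counts scaled for gene length and library size (FPKM), so levels of different genes are compared on them. The libraries held 14394658, 14547470, 14835885 and 14683524 reads assigned to genes, as recovered from the FPKM values. Reads were present for 26842 to 27175 of the 37114 rows of the table in each library, and 7318 rows had no read in any of the 4. A mean of at least 0.5 FPKM was reached by 20802 rows, at least 5 FPKM by 9242 rows, at least 100 FPKM by 533 rows and at least 1000 FPKM by 74 rows. Across the 9242 rows with a mean of at least 5 FPKM, Pearson's r of log2(FPKM + 0.5) was lowest between AB12_16 and AB1_19, at 0.943, and highest between AB1_8 and AB1_8_ysy, at 0.979. The titles of these last 2 libraries share the start AB1_8, and whether they share a batch is not stated, so their agreement may not be that of independent pools. These values are taken across genes, which are not independent replicates. AB12_16 and AB1_19 differed by more than 2-fold in 432 rows (4.67%), of which 282 were higher in AB12_16, and AB1_8 and AB1_8_ysy did so in 71 rows (0.768%). The first principal component of these rows, with 55.1% of the variance, set AB12_16 at 27.1 and AB1_19 at -19.9, with AB1_8 at -4.0 and AB1_8_ysy at -3.2 between them. The results below that rest on AB12_16 or AB1_19 are therefore also given without that library where it changes them.

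The most expressed gene was *mt-co1*, the mitochondrial gene for subunit 1 of cytochrome c oxidase, with FPKM of 5392, 5567, 6473 and 5297. The next were *mt-co2* and *mt-co3*, for other subunits of the same enzyme, with means of 4133 ± 444 and 4090.3 ± 303 FPKM (SD, n = 4). The ribosomal stalk protein gene *rplp0* followed with 3442, 3992, 4541 and 3932. The chromatin protein gene *hmgn2* had 2870, 3212, 3567 and 2688, and *hmga1a*, an architectural chromatin gene of proliferating cells, had 2089.6, 2608, 2751 and 2213. In each of these genes the 4 libraries lay close together and AB1_8 was the highest.

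Other genes among the 30 highest were *mt-atp6*, the prothymosin gene *ptmab*, the elongation factor genes *eef2b* and *eef1a1l1*, the cytoplasmic actin gene *actb2* and *slc25a5*, an ADP/ATP carrier of mitochondria. *krt4*, a keratin of the outer skin layer, was the 30th highest row, with 1901, 1868, 1439 and 1926 FPKM. The 10 highest rows took 7.66 to 8.36% of all FPKM in a library and the 100 highest took 34.3 to 36.9%. Of the 100 highest, 43 were on the list of cytosolic ribosomal proteins, 11 on the list of mitochondrial genome genes, 4 on that of tubulins and microtubule genes, 4 on that of translation factors, 3 on that of high mobility group proteins, 3 on that of crystallins and 3 on that of surface epithelium. The globin list gave 1, *hbae3*. The general machinery of protein synthesis and respiration thus held most of the top of the table, and lens, skin and blood were each present there with at least 1 gene.

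**Figure D1:**
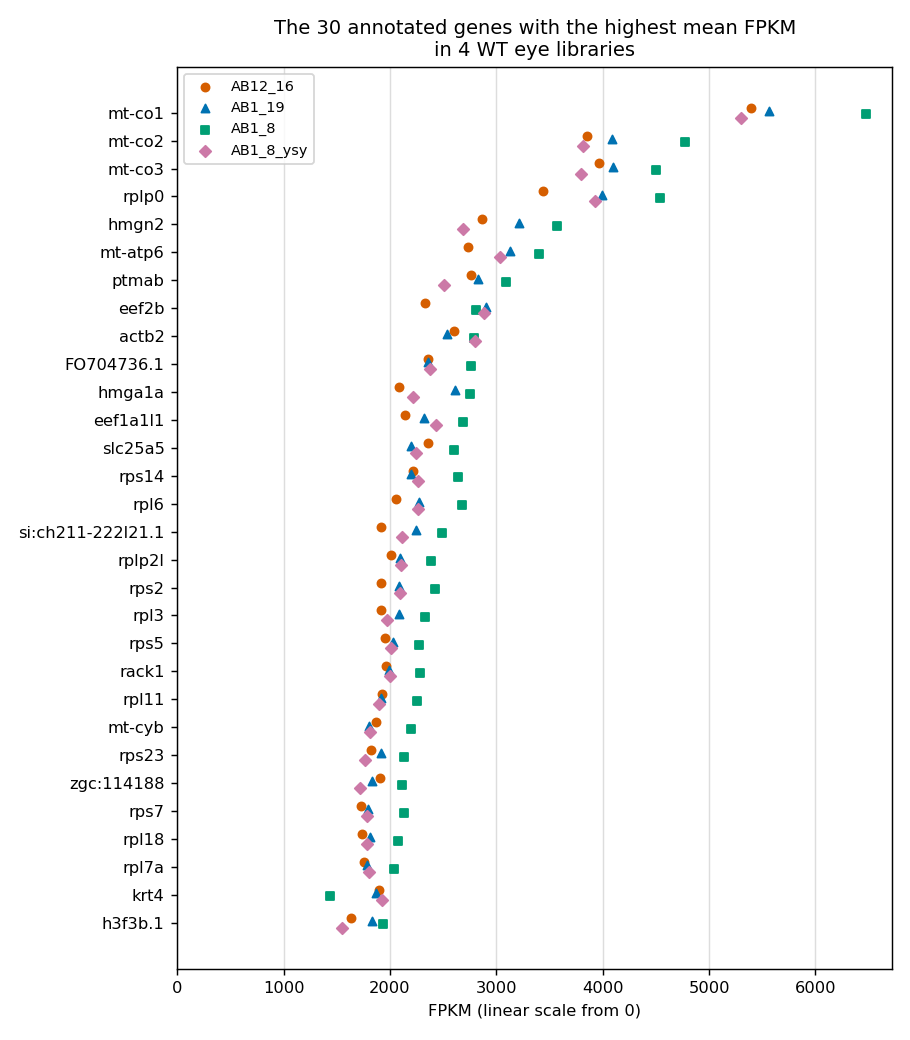
FPKM of the named genes with the highest means, on a linear axis, with 1 point per WT library. The 4 points of a gene lie close together, from *mt-co1* with a mean of 5682 FPKM downward.

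Retinal progenitor genes were abundant. Of 26 measured members of the list, 24 reached a mean of 5 FPKM, and the list sum was 4166, 4439, 4932 and 3868 FPKM. *hmga1a*, which is not particular to the retina, made up most of this sum. After *hmga1a*, the largest part came from *fabp7a*, a fatty acid binding protein gene of neural progenitors and glia, with 956, 830.2, 1073 and 752. The eye field gene *pax6a* had 91.5, 100.1, 100.5 and 80.6. The neural progenitor gene *sox2* had 94.4, 97.7, 104 and 82.2. The homeobox gene *six3b* had 51.7, 62.8, 61.7 and 57.4. These 3 transcription factor genes act in retinal progenitors, and they varied little, with an SD of log2(FPKM + 0.5) of 0.15, 0.14 and 0.13. Other members varied more. *meis2b*, a TALE homeobox gene, had 34.4, 8.85, 11.6 and 13.6 FPKM. *mab21l2*, an eye morphogenesis gene, had 51.0, 23.3, 23.8 and 32.7. The LIM homeobox gene *lhx9* had 25.5, 10.7, 13.3 and 16.02. AB12_16 was the highest library in each of these 3.

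Genes that divide the retina into its quadrants were lower. The nasal gene *foxg1a* had 45.6, 53.8, 44.2 and 51.3 FPKM and the temporal gene *foxd1* had 31.5, 50.8, 48.2 and 44.2. The ventral gene *vax2* had 11.9, 19.5, 15.0 and 10.21. None of the 11 members with a mean of at least 5 FPKM was among the 5% of rows with the largest SD.

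Genes of neurons in the making were abundant. The neurogenesis list had 34 of 38 members at 5 FPKM or more and a sum of 2861, 2356, 2633 and 2302 FPKM. *insm1a*, a zinc finger gene of newborn neurons, had 263, 222, 255 and 223, and *elavl3*, an RNA binding protein gene of young neurons, had 213, 156, 157 and 148. *atoh7*, which is required for ganglion cells, had 79.7, 85.0, 105 and 64.5 and *neurod4* had 149.7, 104, 141 and 115. The Delta ligand gene *dlb*, through which newborn neurons signal to their neighbors, had 122, 124, 123 and 125. It was among the 10 least variable genes above 50 FPKM. Its SD of 0.014 was below the 0.019 that counting reads alone would give, so its spread was within counting error. By contrast *prdm13*, a gene of amacrine cell specification, had 28.0, 7.81, 15.7 and 12.01 and *sox4b* had 48.2, 17.8, 26.3 and 27.6, both highest in AB12_16 and lowest in AB1_19.

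Markers of the first differentiated cells were present at moderate levels. Of 43 measured ganglion cell genes, 30 reached 5 FPKM. The highest were *tubb5*, a neuronal beta-tubulin gene, with 598, 345, 394 and 418, and *gap43*, a growth cone gene, with 97.9, 54.7, 58.2 and 55.7. *isl1*, a LIM homeobox gene of ganglion cells, had 54.1, 25.7, 39.6 and 34.1. Of 20 amacrine and horizontal cell genes 15 reached 5 FPKM, among them *ptf1a*, which specifies both types, with 22.4, 5.80, 17.7 and 11.5, *prox1a* with 34.7, 12.2, 20.3 and 19.1 and *gad2*, an enzyme gene of GABA synthesis, with 19.3, 9.75, 11.05 and 10.7. These lists share members with other tissues, since *prox1a* is also a lens gene and *gap43* and *tubb5* are found in many neurons.

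Photoreceptors were represented by their transcription factors and hardly by their opsins. Of 45 measured photoreceptor genes, 8 reached 5 FPKM. The homeobox gene *otx2b* had 179, 89.6, 134.5 and 109.8 FPKM. Its relative *otx5* had 63.3, 17.7, 48.6 and 32.2. *crx*, the homeobox gene of photoreceptor precursors, had 39.2, 6.26, 26.4 and 10.8. All 3 were highest in AB12_16 and lowest in AB1_19. The rod opsin gene *rho* had a mean of 0.911 FPKM from 86 reads over the 4 libraries, and the red cone opsin gene *opn1lw2* had a mean of 1.17 FPKM. The ultraviolet cone opsin gene *opn1sw1* had 1 read and *opn1lw1* had 0 reads. The genes of photoreceptor specification were thus read and these opsin genes were at or near 0.

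Lens crystallins were abundant. Of 57 measured crystallin genes, 35 reached 5 FPKM, with sums of 7806, 7474, 8594 and 10616 FPKM. *crybb1*, a beta-crystallin gene, had 462, 1293, 888 and 1514, and *crygn2* had 893, 776, 922 and 1001. *cryba4* had 527, 463, 578 and 654 and *crygm2d13*, 1 of the fish gamma M crystallins, had 709.5, 458, 660.0 and 813. Crystallins are the soluble proteins that fill lens fibers. The gamma M genes are near-identical copies of each other, so their reads can be split unevenly among them and their single values are uncertain. Fiber membrane genes followed at lower levels, with 49.8, 75.6, 65.3 and 103 for *mipa* and 65.0, 169, 112 and 205 for *mipb*, both lens aquaporin genes, and 47.5, 46.3, 57.5 and 64.9 for the fiber membrane protein gene *lim2.4*.

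Genes of melanin and pigment epithelium had 20 of 33 members at 5 FPKM or more. The median SD of these members was 0.26, beside 0.189 over all rows with a mean of at least 5 FPKM, and none of them was among the 5% of rows with the largest SD. *tyrp1b*, a melanin synthesis gene, had 109, 128, 151 and 126 FPKM. *dct*, for an enzyme of the same path, had 77.0, 98.1, 113 and 85.3. *pmela*, for the fibril protein of the melanosome, had 68.3, 85.0, 102 and 72.4. For these genes AB1_8 was the highest library and AB12_16 the lowest. *gch2*, an enzyme gene of pteridine synthesis in yellow pigment cells, had 162, 208, 187 and 237. The melanosome genes cannot be assigned to the pigment epithelium or to neural crest melanophores from these values, because both cell types use them.

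Skin genes were abundant. The surface epithelium list had 39 of 55 members at 5 FPKM or more and a sum of 6086, 6440.1, 5669 and 7973 FPKM. Besides *krt4*, the keratin gene *cyt1* had 818, 1079, 966 and 1359 FPKM. The related keratin gene *cyt1l* had 690.2, 879.9, 854 and 1209. AB1_8_ysy was the highest in both, as in 27 of the 39 members, beside 19.4% of all rows. Periocular mesenchyme had 25 of 34 members at 5 FPKM or more, led by the collagen gene *col1a2* with 254, 251, 200.04 and 226, and *foxc1a*, a forkhead gene of this mesenchyme, had 34.8, 50.2, 42.0 and 48.6. The list sums of mesenchyme lay close together, with the highest 1.1 times the lowest, while the median SD of its members was 0.24.

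Blood and vessels were both present. Embryonic globin genes summed to 1750, 1637, 2015 and 2738 FPKM, with *hbae3* at 807, 675, 885 and 1195 and *hbbe1.1* at 464, 320.1, 500.0 and 625. These genes are read in primitive erythrocytes. The red cell membrane gene *slc4a1a* had 18.9, 26.1, 30.7 and 42.5. The endothelial cadherin gene *cdh5* had 9.01, 10.23, 11.9 and 12.1. The VEGF receptor gene *kdrl* had 6.56, 7.02, 7.25 and 8.88, and *fli1a*, a transcription factor gene of endothelium, had 16.96, 22.1, 18.3 and 24.8. Globin levels were thus far above those of the 3 endothelial genes, per unit of gene length.

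Other tissues were read too. The brain list, of genes whose main sites lie outside the retina, had 35 of 59 members at 5 FPKM or more, with *otpa*, a homeobox gene of the hypothalamus, at 72.4, 68.1, 59.8 and 59.3 and *dlx2a*, a forebrain homeobox gene, at 52.4, 57.2, 61.8 and 59.5. Several of these genes are also known from the retina or its surroundings. The hatching gland protease gene *he1.1* had 359.9, 248, 336 and 493 FPKM. Muscle genes were low, with 10 of 63 members at 5 FPKM or more and *cmlc1*, a cardiac myosin light chain gene, the highest at 14.6, 12.8, 17.3 and 20.04.

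Some tissues were at or near 0. None of the 31 macrophage and microglia genes in the table reached a mean of 5 FPKM and their sum was 18.6 to 29.4 FPKM. The highest was *lcp1*, a leukocyte actin-bundling gene, with 2.67, 5.14, 4.89 and 5.03. The complement genes *c1qa*, *c1qb* and *c1qc* had 0 reads, and the macrophage gene *mpeg1.1* had 9 reads over the 4 libraries. None of the 42 posterior Hox and tail bud genes reached 5 FPKM, with a sum of 3.06 to 5.78 FPKM, so these genes of the trunk were hardly read. The liver gene *fabp10a* had 0 reads. Its list, of yolk syncytial layer and liver genes, was not near 0. That list had 10 of 57 members at 5 FPKM or more and sums of 216 to 268 FPKM.

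**Figure D2:**
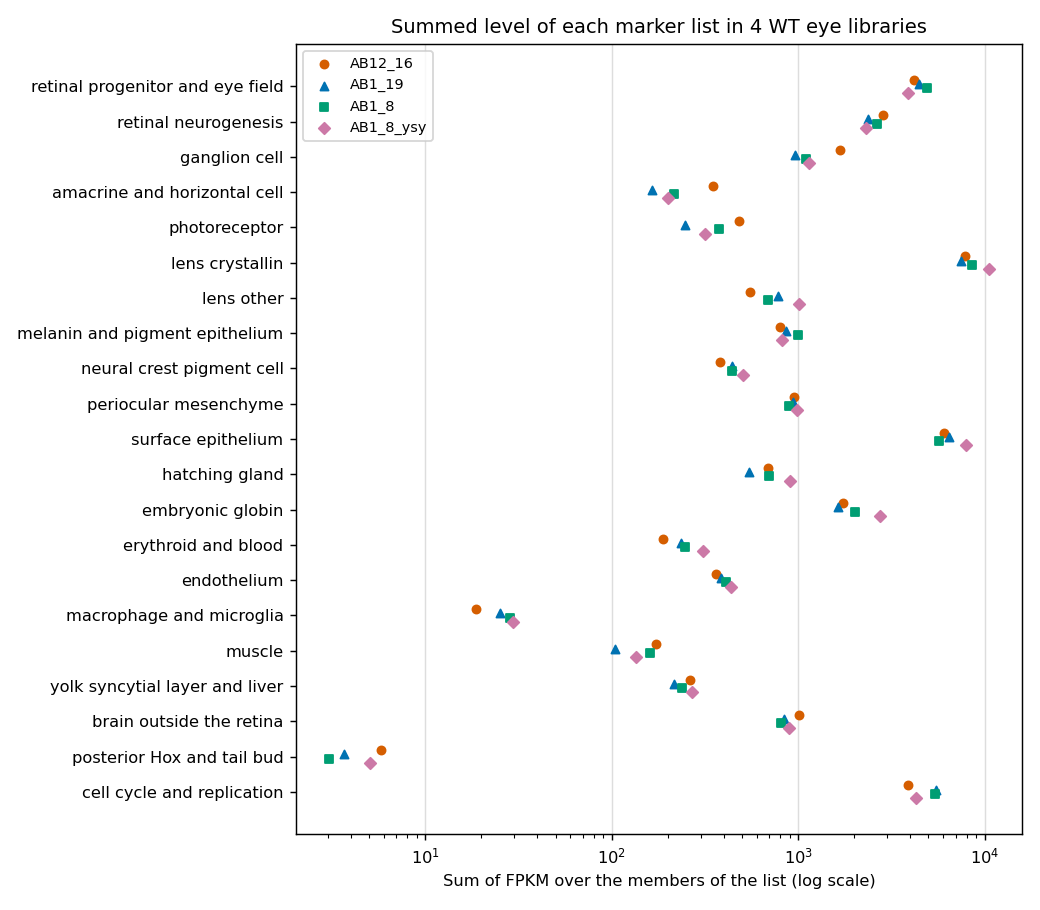
Summed FPKM of the members of each tissue list, on a log axis, with 1 point per WT library. Crystallins, surface epithelium, retinal progenitors and cell cycle genes are high, and macrophage and posterior Hox genes are at the bottom.

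The genes that the study names were read as follows. *flrt2*, which codes for a cell surface protein with leucine-rich repeats, had 2.48, 2.33, 2.25 and 2.55 FPKM. It lay below the 5 FPKM used for the spread below, and its values were close, with an SD of 0.068. The receptor gene *fgfr1a* had 6.59, 8.49, 5.85 and 6.93 and the nuclear receptor gene *rorb* had 90.1, 59.6, 81.4 and 52.0. *casp3a* had 1.69, 2.13, 2.13 and 1.76 and *pcdh8* had 2.66, 0.522, 1.31 and 0.948.

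The spread between the 4 WT libraries was measured for the 9242 rows with a mean of at least 5 FPKM as the SD of log2(FPKM + 0.5). The median SD was 0.189, which corresponds to 1.14-fold. The 10th percentile was 0.0824, the 90th was 0.403, the 95th was 0.508 (1.42-fold) and the largest was 2.02. For each row the SD that counting reads alone would give was computed from its reads, and its median was 0.0601. The SD was more than 2 times this counting value in 6935 rows (75.0%). Most genes thus differed between WT pools by more than counting error, and most differed by little.

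The spread was larger at low levels. Rows of 5 to 10 FPKM had a median SD of 0.215 against a counting value of 0.0818, and rows of 1000 FPKM or more had a median of 0.131 against 0.00896. Of the 37 rows with an SD of 1 or more, 20 lay between 5 and 10 FPKM, 16 between 10 and 50 FPKM and 1 between 50 and 200 FPKM. They were 0.4% of the rows. Without AB1_8 there were 68 such rows and without AB1_8_ysy 65, and without AB12_16 or AB1_19 there were 32 or 25. Of these 37 rows 14 had a gene symbol, 11 had a clone or small RNA name and 12 had no name, and 11 lay on alternate contigs, which hold other versions of parts of the chromosomes. The ribosomal protein gene *rpl12* had the smallest SD of 1 or more among them, 1.01, and the next row below, without a name, had 0.998. At the other threshold, *cyp3c1* had a mean of 5.0004 FPKM and was kept, and *sim1a* had 4.997 and was not.

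**Figure D3:**
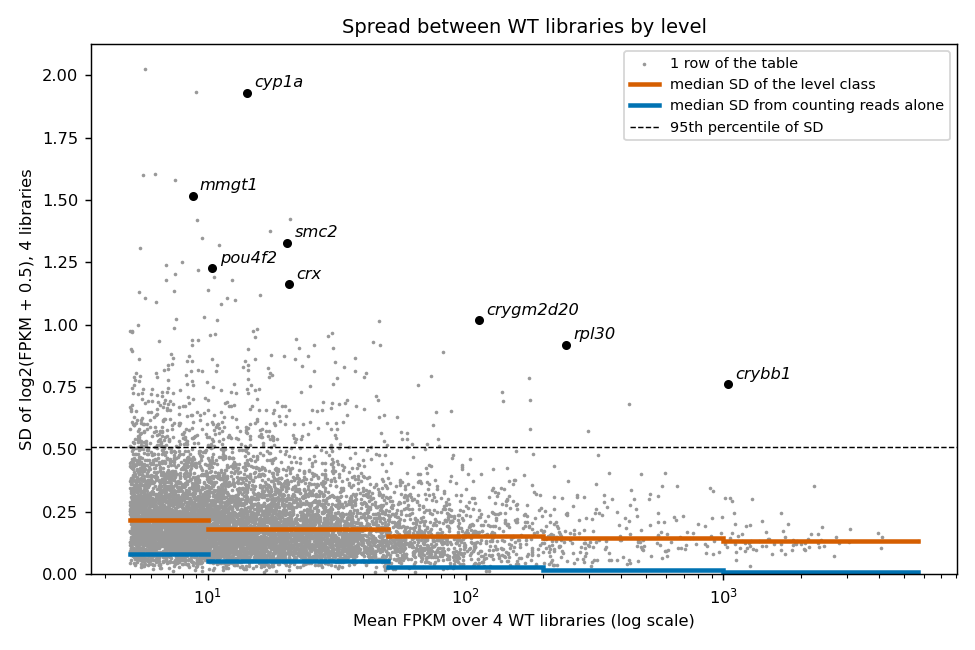
SD of log2(FPKM + 0.5) over the 4 WT libraries against the mean FPKM on a log axis, for the 9242 rows with a mean of at least 5 FPKM, with the SD from counting alone. The median SD was 0.189 and few rows reached 1.

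The largest SD of all belonged to *dre-mir-124-2*, the row of a precursor of the neuronal microRNA miR-124, with 7.81, 0, 4.89 and 10.15 FPKM. A precursor is short and gave few reads, and the SD computed from counting alone was 0.39. That value is too low, because AB1_19 with 0 reads adds no counting error to it. This row is thus the least certain of those named. Among genes with a symbol the largest SD was that of *cyp1a* (chromosome 18, 5588068 to 5598958), with 1.14, 5.11, 11.1 and 39.6 FPKM and an SD of 1.93. *cyp1a* codes for a cytochrome P450 that is induced through the aryl hydrocarbon receptor. It was 34.7 times higher in AB1_8_ysy than in AB12_16, the widest range of the 30 genes named for their spread.

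The next genes fell into several kinds. *znf593*, a zinc finger gene, had 14.8, 2.398, 2.49 and 16.6 FPKM, high in AB12_16 and AB1_8_ysy and low in the other 2 libraries. *rsrp1*, an arginine and serine rich protein gene, had the same pairing, with 57.8, 16.7, 14.6 and 33.2. *metap1*, a methionine aminopeptidase gene, had 4.44, 14.8, 16.6 and 4.83, low where those 2 genes were high. *smc2*, a condensin subunit gene needed for chromosome condensation, had 3.80, 34.7, 21.1 and 21.8, and *prtgb*, a protogenin gene of the immunoglobulin family, had 2.06, 11.98, 7.18 and 8.28. For both, AB12_16 was the low library, and without it the SD was 0.393 for *smc2* and 0.362 for *prtgb*.

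Single libraries set several of these values. *map7d3*, a gene of the MAP7 family of microtubule-binding proteins, had 9.87, 1.39, 11.3 and 9.39 FPKM, and its SD of 1.25 was 0.129 without AB1_19. The forkhead gene *foxq1a* had 5.82, 1.59, 4.42 and 8.43 and an SD of 0.431 without AB1_19. *ndrg1b* had 37.7, 7.999, 26.7 and 15.9 and *ponzr3* had 40.4, 8.91, 23.8 and 30.02, with SDs of 0.612 and 0.377 without AB1_19. *cps1*, an enzyme gene of ammonia handling, had 10.7, 44.4, 21.2 and 44.9 and *hint1* had 9.77, 27.2, 30.1 and 49.4, with SDs of 0.611 and 0.454 without AB12_16. *col2a1a*, a collagen gene of cartilage and notochord, had 33.4, 7.27, 13.5 and 16.2, and its SD was 0.578 without AB12_16. In 19 of the 30 genes named for their spread, leaving out 1 library lowered the SD by more than 1.5 times. An SD was computed only where the mean over the remaining libraries was at least 5 FPKM, so this count can be too low. For *pou4f1* and *prdm1a* none was computed without AB12_16, their highest library.

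Across the 100 rows with the largest SD, the library farthest from the mean of the other 3 was AB1_19 in 49 rows, AB12_16 in 37, AB1_8_ysy in 10 and AB1_8 in 4. AB1_19 was the low one in 38 of its 49 rows. When AB1_19 was left out, the rows were ranked anew and AB12_16 was the farthest in 62 of 100, AB1_8_ysy in 23 and AB1_8 in 15. When AB12_16 was left out, AB1_19 was the farthest in 73, AB1_8_ysy in 21 and AB1_8 in 6. AB1_8 was the farthest in 7 without AB1_8_ysy. Over all 9242 rows the farthest library was AB12_16 in 40.5%, AB1_19 in 21.8%, AB1_8_ysy in 20.8% and AB1_8 in 17%. AB12_16 was the highest and AB1_19 the lowest library in 31 of the 100 rows and in 143 of the 463 rows with an SD at or over the 95th percentile (30.9%), beside 13% of all rows. The reverse, AB1_19 highest and AB12_16 lowest, was found in 69 of the 463 (14.9%), beside 16.9% of all rows.

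**Figure D4:**
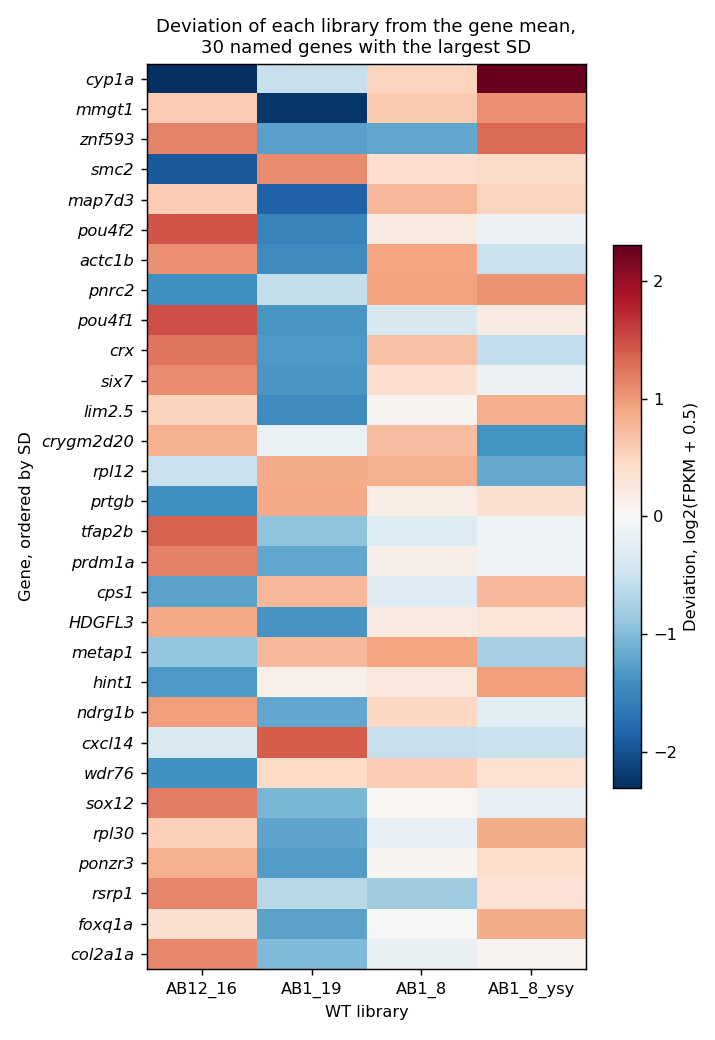
Expression of the 30 named genes with the largest SD between WT libraries, shown library by library. For *pou4f2*, *pou4f1*, *crx* and *six7* AB12_16 is the highest and AB1_19 the lowest, and *cyp1a* is highest in AB1_8_ysy.

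Several genes of differentiating retinal neurons were among the 30 genes named for their spread. *pou4f2* (chromosome 1, 36436936 to 36440301), a POU homeobox gene of ganglion cells, had 22.8, 2.45, 9.28 and 7.23 FPKM and an SD of 1.23. Its relative *pou4f1* had 15.6, 1.77, 3.96 and 6.15 and an SD of 1.18. In both genes AB12_16 stood above the other 3 libraries and AB1_19 below them. *crx* (chromosome 5, 36932718 to 36936443) had an SD of 1.16 and *six7*, a homeobox gene of photoreceptors, had 17.8, 2.86, 10.7 and 7.27 FPKM and an SD of 1.03, which was 0.619 without AB1_19. For *crx* and *six7* AB1_8 was the second highest library. Leaving out 1 library in turn gave SDs of 0.837 to 1.5 for *pou4f2* and 0.925 to 1.34 for *crx*. For *pou4f1* the SDs were 0.946 to 1.43, but without AB12_16 its mean fell below 5 FPKM and no SD was computed. The range of *pou4f1* thus does not cover the loss of its highest library.

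The transcription factor gene *tfap2b*, of amacrine and horizontal cells, had 32.7, 6.24, 9.79 and 11.4 and an SD of 0.98, which was 0.424 without AB12_16. *prdm1a*, which acts in photoreceptor precursors and also in muscle and skin, had 9.99, 1.53, 4.65 and 3.86 and an SD of 0.97. Leaving out 1 library in turn gave SDs of 0.672 to 1.19 for *prdm1a*. Without AB12_16 the mean of *prdm1a* fell below 5 FPKM and no SD was computed, so this range does not cover that case. *sox12*, a SoxC gene of young neurons, had 86.6, 17.7, 38.8 and 32.6, with an SD of 0.584 without AB12_16. The order of AB12_16 highest and AB1_19 lowest held in each of these 3 genes.

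The same order was counted in the lists. Of the 30 ganglion cell genes at 5 FPKM or more, 27 were highest in AB12_16, 22 were lowest in AB1_19 and 21 were both (70.0%, beside 13% of all rows). Their sums were 1679, 957, 1105 and 1138 FPKM. Of the 15 amacrine and horizontal cell genes 10 had this order, with sums of 351, 165, 215 and 201. Of the 8 photoreceptor genes 6 had it, with sums of 484, 247, 375 and 316. Of the 34 neurogenesis genes 13 had it, and their list sum was highest in AB12_16 and lowest in AB1_8_ysy, though in AB1_19 per recovered read. The highest sum was 1.76 times the lowest for ganglion cells, 2.13 times for amacrine and horizontal cells and 1.96 times for photoreceptors. AB12_16 stayed the highest and AB1_19 the lowest for these 3 lists with equal column sums, with median-ratio size factors and per recovered read. Without AB12_16 the ratio was 1.19 for ganglion cells, 1.3 for amacrine and horizontal cells and 1.52 for photoreceptors. Over all photoreceptor members, most of them near 0, the mean of log2(FPKM + 0.5) gave a ratio of 1.29. The mean that sets the 5 FPKM threshold includes AB12_16, so a gene can pass it through a high value there. The photoreceptor gene *prdm1a* and the amacrine cell gene *barhl2* were above 5 FPKM in AB12_16 only. The ganglion cell gene *pou4f1* also passed only through AB12_16, since its mean over the other libraries was below 5 FPKM. Such genes raise the counts here and those among the rows of largest SD. With median-ratio size factors 5 of 7 photoreceptor genes had the order.

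The share of list members among the 463 rows of largest SD was 9 of 30 for ganglion cells, 8 of 15 for amacrine and horizontal cells, 4 of 8 for photoreceptors and 4 of 34 for neurogenesis, beside 5.01% of all rows. The ganglion cell members were *pou4f2*, *pou4f1*, *isl2b*, *scrt1a*, *rbpms2b*, *rbpms2a*, *sncgb*, *stmn2b* and *irx1a*. *scrt1a* had 57.0, 18.4, 24.6 and 28.8 FPKM and *stmn2b*, a neuronal microtubule gene, had 95.2, 41.4, 57.2 and 44.2. *lhx1a*, a LIM homeobox gene of horizontal cells, had 61.2, 19.8, 26.1 and 29.3. For these 3 genes AB12_16 was above the other libraries by a wider margin than those differed among each other.

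Cell cycle genes had the reverse order with smaller differences. All 50 members of the list with a mean of at least 5 FPKM lay below the 95th percentile of SD. *pcna*, the replication clamp gene, had 772, 1212, 1162 and 915 FPKM, *mcm5*, a helicase subunit gene, had 118.7, 184, 176 and 153 and *mki67* had 157, 199, 219.8 and 166. AB12_16 was the lowest library in 37 of the 50, beside 38.1% of all rows, and AB1_19 the highest in 28, beside 29.2%, and both held in 27, beside 16.9%. The sums were 3873, 5491, 5446 and 4291 FPKM, a ratio of 1.42. AB1_19 stayed the highest sum and AB12_16 the lowest under each of the 3 scalings above. AB12_16, with the highest sums for the 3 neuron lists, thus had the lowest sum for replication genes, and AB1_19 was at the other end of both. The list of brain genes outside the retina was also highest in AB12_16, in 21 of 35 members (60%, beside 26.7% of all rows), with sums of 1012, 835, 808 and 892 FPKM, and its sum stayed highest there under the 3 scalings. Glycolysis genes resembled the neuron lists, with AB12_16 the highest and AB1_19 the lowest in 10 of 15, beside 13% of all rows, among them *ldha*, a lactate dehydrogenase gene, with 38.8, 21.5, 28.9 and 24.0 FPKM. None of the 15 was among the 463 rows of largest SD. A different age of the pools and a different makeup of the dissected tissue cannot be told apart from these values.

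Lens genes varied in more than 1 order. Of the 35 crystallin genes at 5 FPKM or more, 27 were lowest in AB1_19, beside 23.2% of all rows. In 21 AB1_8_ysy was the highest, beside 19.4% of all rows, and in 12 AB12_16 was, beside 26.7%. Of the 35 genes 9 were among the 463 rows of largest SD, which hold 5.01% of all rows. The beta-crystallin genes *crybb1* and *crybb1l1*, with 215, 459.8, 378 and 670.3 FPKM for the latter, were lowest in AB12_16 and highest in AB1_8_ysy. The gamma M gene *crygm2d15* had 98.2, 28.5, 60.4 and 74.4. Another, *crygm2d7*, had 29.6, 7.29, 25.6 and 16.7. Both were highest in AB12_16 and lowest in AB1_19. *crygm2d20* (chromosome 9, 22212241 to 22213348) had 170.0, 85.9, 158 and 36.6, lowest in AB1_8_ysy, and its SD of 1.02 was 0.538 without that library. *cryba4* and *crygm2d13*, given above, had another order, lowest in AB1_19 and highest in AB1_8_ysy. Beta and gamma M genes were not compared as classes.

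The list of other lens genes holds fiber genes and transcription factors, and its sum was lowest and highest in the same libraries as *crybb1*. The sums were 553, 779, 687 and 1009 FPKM. AB12_16 was the lowest in 13 of the 20 members, beside 38.1% of all rows, and AB1_8_ysy the highest in 14, beside 19.4%. The connexin gene *gja8b* had 21.3, 60.7, 36.6 and 61.4, *capn3a*, a calpain protease gene, had 49.1, 86.0, 71.1 and 146 and *BFSP1*, for a beaded filament protein, had 17.2, 39.0, 28.3 and 54.6. *lim2.5* differed from them, with 13.6, 3.05, 9.78 and 16.97, lowest in AB1_19, and its SD of 1.02 was 0.385 without that library. The fiber membrane gene *lim2.4*, given above, was also lowest in AB1_19. Of the 20 members 9 were among the 463 rows of largest SD, beside 5.01% of all rows.

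A few genes that respond to light or stress varied. The circadian nuclear receptor gene *nr1d2b* had 4.57, 14.1, 6.76 and 7.66 FPKM. *tefa*, a clock-controlled transcription factor gene, had 3.45, 10.6, 4.78 and 5.84. *cry1aa*, a light-induced cryptochrome gene, had 4.54, 13.8, 8.63 and 13.3. AB1_19 was the highest library in these 3. These are the 3 of 18 clock genes among the 463 rows of largest SD, which hold 5.01% of all rows, and over the 18 genes AB1_19 was the highest in 6 (33.3%, beside 29.2% of all rows). The inducible chaperone gene *hsp70.1* had 5.62, 4.21, 5.19 and 11.5. Its copy *hsp70.2* had 8.56, 6.38, 8.58 and 17.97, and *hsp70.3* had 11.4, 12.3, 10.6 and 28.9. All 3 were highest in AB1_8_ysy, and they are close copies, so their single values are uncertain. *serpinh1b*, a collagen chaperone gene, had 51.4, 12.1, 30.05 and 31.4. The immediate early gene *cebpb* had 6.12, 7.61, 6.70 and 16.8, again highest in AB1_8_ysy. *hsp70.1*, *hsp70.2*, *hsp70.3*, *serpinh1b* and *cebpb* were picked after their values were seen. Of the 25 heat shock and chaperone genes 7 were highest in AB1_8_ysy (28.0%, beside 19.4% of all rows) and 9 in AB12_16, and 5 were among the 463 rows of largest SD.

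Globin genes were mostly highest in AB1_8_ysy. Of the 8 globin genes at 5 FPKM or more 7 were highest in AB1_8_ysy, beside 19.4% of all rows, and the sum was 1.67 times higher there than in AB1_19. *hbbe1.2* had 144, 91.5, 136 and 335 FPKM and *mpx*, the neutrophil myeloperoxidase gene, had 3.16, 4.1997, 6.33 and 8.96. *hbbe3* differed, with 195, 405, 326 and 378, highest in AB1_19. The hatching gland gene *he1.2* had 52.5, 14.7, 34.3 and 47.3, lowest in AB1_19. The muscle actin gene *actc1b* had 12.7, 1.82, 11.4 and 3.91, with AB12_16 and AB1_8 above the other 2 libraries and an SD of 1.201. The part of blood, gland or muscle left on the dissected eyes in these values was not tested.

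The least variable genes above 50 FPKM included enzymes and transport genes. *suclg1*, a subunit gene of succinyl-CoA ligase, had 63.9, 63.2, 63.9 and 63.9 FPKM and an SD of 0.0082. *mdh1aa*, a malate dehydrogenase gene, had 118, 119.9, 121 and 118.97 and an SD of 0.011. The others were *dlb*, *actr1*, *ap2s1*, *pak2b*, *ppp1cbl*, *copg2*, *mapk3* and *uqcrc2a*. In each of these genes the SD lay below the one from counting alone, which was 0.0365 for *suclg1* and 0.021 for *mdh1aa*. Their spread was thus within counting error, and their order says little. Of common reference genes, *actb2* had 2607, 2533, 2791 and 2802 with an SD of 0.072, *actb1* had 768, 654, 689 and 733 with 0.10 and *eef1a1l1* had 2143, 2321, 2689 and 2432 with 0.14.

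Genes of large complexes were even, with a few exceptions. The median SD was 0.085 for 39 proteasome genes, 0.10 for 80 nuclear genes of oxidative phosphorylation, 0.13 for 77 cytosolic ribosomal protein genes, 0.13 for 58 splicing genes and 0.15 for the 13 protein genes of the mitochondrial genome, beside 0.189 over all rows. Ribosomal protein genes were highest in AB1_8 in 70 of 77, beside 24.7% of all rows, and 66 of 77 with equal column sums. Mitochondrial genome genes were highest there in 13 of 13, and 11 of 13 with equal column sums. AB1_8 also had the largest sum of all FPKM, 462858, beside 418891 to 436695 in the others. In such complexes most subunits had similar SDs, so a subunit with a large one stood apart. *rpl30* had 315, 92.4, 189 and 388 FPKM and an SD of 0.92, which was 0.535 without AB1_19, *psmb10*, an immunoproteasome subunit gene in mammals, had 3.30, 10.6, 6.31 and 5.16, and *rpl12* (chromosome 5, 32882688 to 32887020) had 26.97, 71.0, 69.3 and 16.9.

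Variable rows were not spread evenly over the assembly. The files give coordinates on GRCz11. Rows on the 25 chromosomes were among the 463 of largest SD in 345 of 8508 cases (4.06%). Rows on alternate contigs were so in 99 of 585 (16.9%) and rows on unplaced contigs in 12 of 118. Rows of the mitochondrial genome were so in 7 of 31 (22.6%), none of them 1 of its 13 protein genes. The most variable of these 7 had only 43 reads over the 4 libraries. Its SD was 0.86, beside 0.47 from counting alone. On alternate contigs of chromosome 14 the count was 17 of 34 (50%), and in 11 of these AB1_19 was the farthest library, below the others. An alternate contig carries a second version of a stretch of a chromosome, and a gene in it has a row on the chromosome and another, without a name, on the contig. How reads that fit both versions were counted is not given in the sources used here.

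The reads of both versions were therefore joined, for rows that matched the same protein on the same chromosome within 0.2 Mb. Of 3207 rows on alternate contigs 2440 matched 2181 genes, and 474 of these genes had a mean of at least 5 FPKM on the chromosome. Joining lowered the SD in 332 of the 474 (70.0%) and took their median from 0.235 to 0.171. Of the 474 genes 55 (11.6%) lay at or over the 95th percentile before, and 12 after. The joined value divides all reads by the length of the named gene, so it is not the sum of both FPKM values.

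*mmgt1* (chromosome 14, 31615577 to 31619408), a gene of the endoplasmic reticulum membrane complex, is an example. Its row on the chromosome had 9.97, 0.961, 9.996 and 14.0 FPKM and its row on the alternate contig had 8.35, 11.3, 9.80 and 6.80. AB1_19 was low in the first and high in the second. Joined, the values were 29.2, 27.05, 32.5 and 29.7, and the SD went from 1.52 to 0.11. Without AB1_19 the SD of the chromosome row alone was 0.272. In *pnrc2*, a nuclear receptor coactivator gene, AB12_16 and AB1_19 were low on the chromosome, with 2.80, 5.57, 16.5 and 17.6, and the alternate row had 52.4, 41.9, 34.5 and 25.5. Its SD went from 1.19 to 0.15.

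The same was found in other genes. The SD went from 0.94 to 0.24 for the chemokine gene *cxcl14*, from 0.93 to 0.20 for *wdr76* and from 0.83 to 0.054 for *dpf2l*. On the chromosome rows alone, *cxcl14* had 5.76, 20.8, 5.04 and 5.13 FPKM, high in AB1_19 and with an SD of 0.0964 without it, and *wdr76* had 1.84, 7.95, 8.73 and 7.37, low in AB12_16 and with an SD of 0.116 without it. The joined SD was also lower in some of the outlying members of complexes, from 0.69 to 0.20 for the proteasome gene *psmc6*, from 0.62 to 0.093 for the respiratory chain gene *uqcrc1* and from 0.55 to 0.10 for *ndufab1a*. It stayed high in *crygm2d20*, from 1.02 to 0.99, in *crygm2d7*, from 0.88 to 0.89, and in *rpl12*, from 1.01 to 0.98. *cyp1a*, *pou4f2*, *pou4f1*, *crx*, *six7*, *tfap2b*, *smc2* and *map7d3* had no matched alternate row. The match requires the same protein accession, so it can miss a row of the same gene. *map7d3* (chromosome 14, 31668510 to 31715412) lies near *mmgt1* and was also low in AB1_19. Whether an unmatched alternate row holds reads of *map7d3* was not tested. Near *crx*, an unnamed row on an alternate contig of chromosome 5 had 10.1, 2.11, 5.16 and 2.76 FPKM. That row was also highest in AB12_16 and lowest in AB1_19, and whether it belongs to *crx* was not tested.

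**Figure D5:**
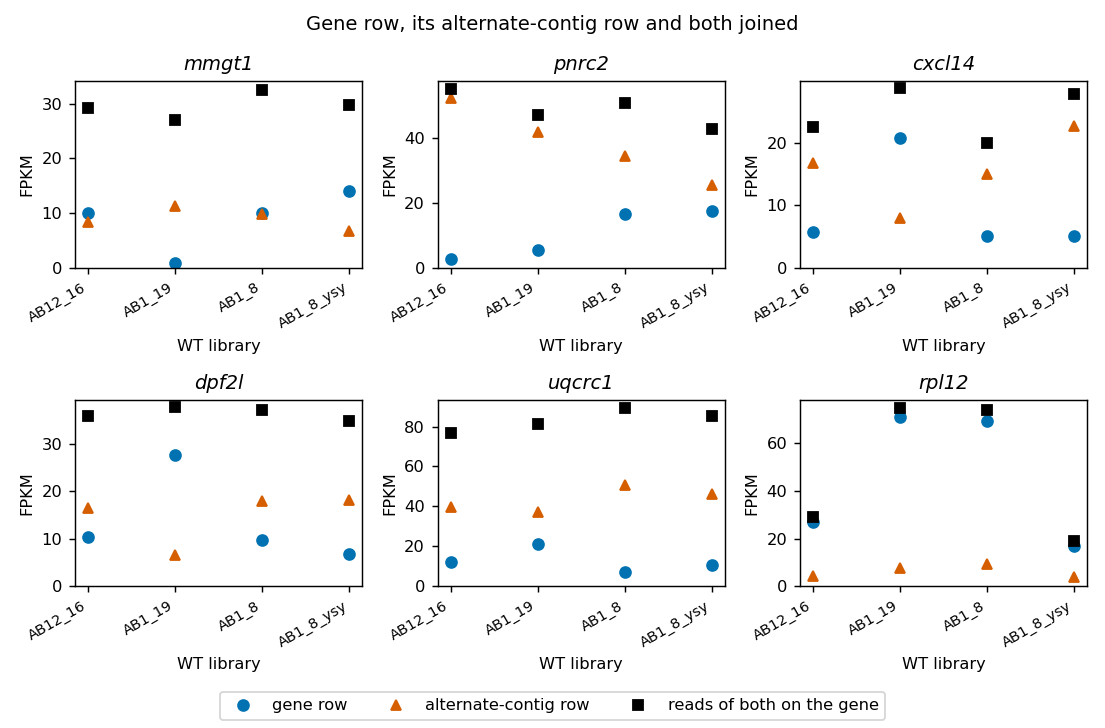
FPKM in the 4 WT libraries of *mmgt1*, *pnrc2*, *cxcl14*, *dpf2l*, *uqcrc1* and *rpl12*. Points are the chromosome row, the matched row on an alternate contig and the reads of both joined. The SD of log2(FPKM + 0.5) of *mmgt1* was 1.52 from the chromosome row and 0.11 joined, and that of *rpl12* was 1.01 and 0.98.

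Levels were affected as well as spread. Of 76 matched genes with a joined mean of at least 50 FPKM, 36 had at least 50% of their reads on alternate rows and 15 had less than 5 FPKM on the chromosome row. *hspa8*, the constitutive cytosolic HSP70 gene, had 3.38, 2.59, 3.84 and 3.78 FPKM on its named row and 397, 507, 496 and 516 on the alternate row, so 98.0% of its reads lay there. *rpl32* had 0 reads on its named row, and its joined values were 1193, 1178, 1516 and 1308. The skin keratin gene *krt5* had 99.6% and the lens gene *lim2.1* had 98.7% of its reads on alternate rows. *krt4* had 57.0%, and its joined mean of 4147 FPKM would place it among the highest genes of the eye. A reading of the named rows alone thus put *hspa8*, *rpl32* and *krt5* near 0, while the reads on their matched alternate rows were abundant. The match, by protein accession and distance, does not tell a gene from a close relative beside it.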

How the data were processed

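The authors sequenced RNA of about 40 pooled eyes per library, filtered the reads, aligned them to GRCz11 with HISAT2 2.0.5, used featureCounts 1.5.0-p3 for the counts per gene, and deposited 1 table of FPKM values for the 8 libraries of the series. The 4 WT columns were used and the 4 mutant columns were not used here. No other columns of samples (0) were found. The product of FPKM, gene length and a library size was whole for 100% of the values, to within 1e-06, and is called the recovered reads. The library size behind the FPKM was 0.996 to 1.07 times the sum of these reads per library, and the origin of this factor is not described in the sources used here.

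FPKM values were used as deposited. Spread was the SD of log2(FPKM + 0.5) over the 4 libraries, for rows with a mean of at least 5 FPKM. The fold on this scale understates that of low genes. The SD from counting was computed from the reads by the delta method, and covers counting error only. There was 1 group, so no test between groups was made. The scripts were tested on simulated data. The software was Python 3.11.15 and its packages pandas 2.3.3, numpy 2.4.6 and, for plots, matplotlib 3.10.9.

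Tissue and pathway lists held 1191 symbols, of which 1119 were found by the name in the file and 32 by another name. The libraries, lists and thresholds were chosen with earlier results of these data known. Named genes were the 30 genes of highest mean, the 30 genes with a symbol of largest SD, up to 6 of the highest members of each list and its members with an SD of 1 or more, the 10 least variable genes above 50 FPKM, reference genes, genes the study names and defining markers of absent tissues. Other genes in the text were named after their values were seen, as members among the rows of largest SD or examples of matched alternate rows. Alternate rows were matched to a named gene by the same protein accession, the same chromosome and a distance under 0.2 Mb. Alternatives were other pseudocounts, level thresholds and scalings, other measures of spread, joined alternate rows and leaving out each library. Some results are not reported here.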

Additional observations from a re-analysis of the deposited data

Results flagged for a closer look

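In each group of 4 libraries, the gap of the highest or lowest value to its neighbor was divided by the whole range, on the log2(FPKM + 0.5) scale, for the genes the text names and for the list sums. A ratio above Dixon's critical value for 4 samples marks a library far from the other 3. Chance marks about 1 in 20 groups, and 11 of 171 were marked here, so single cases carry little weight.

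AB1_19 stood apart in *map7d3* (ratio 0.905) and *mmgt1* (0.857), where it was low, and in *cxcl14* (0.909), where it was high. It also stood apart in *suclg1* (0.886), the least variable gene above 50 FPKM, where the gap is very small. AB12_16 stood apart in *wdr76* (0.883) and *eef2b* (0.85), where it was low, and in *gap43* (0.894) and *elavl3* (0.842), neuronal genes, where it was high. AB1_8_ysy was high in *hsp70.3* (0.854) and *cyp3c1* (0.895), a cytochrome P450 gene. AB1_8 was low in *krt4* (0.896), the skin keratin. For *mmgt1*, *cxcl14* and *wdr76* a matched row on an alternate contig held part of the reads, and with both rows joined the SDs were 0.11, 0.24 and 0.20.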

How the results depend on the processing

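With other pseudocounts (0.1 and 1), equal column sums, median-ratio size factors or values per recovered read, 93 to 99 of the 100 rows of largest SD were shared with those reported. The level threshold mattered more. With a mean of at least 1 FPKM there were 17813 rows, the median SD was 0.229, 237 rows had an SD of 1 or more, AB1_8 was the farthest library in 16 of the 100 rows and 15 of these rows were shared. With a mean of at least 10 FPKM there were 5692 rows, 17 with an SD of 1 or more, and 54 shared. With 5 FPKM in every library, a filter that removes rows for being low in 1 library, 4 rows had an SD of 1 or more and 38 were shared. AB1_8 was the farthest in 2 rows with equal column sums. The 100 highest genes held 22.5% of recovered reads and 33.1% of FPKM without mitochondrial genes. The photoreceptor ratio was 1.29 from the mean of log2(FPKM + 0.5).

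Leaving out 1 library in turn gave 9206 to 9246 rows, a median SD of 0.147 to 0.194, 25 to 68 rows with an SD of 1 or more, 45 to 83 shared rows and a share of the 100 highest genes of 34.8 to 35.7%. AB12_16 was then the farthest in 36 to 62 rows, AB1_19 in 50 to 73, AB1_8 in 6 to 15 and AB1_8_ysy in 12 to 23. The highest sum over the lowest was 1.19 to 1.76 for ganglion cells, 1.3 to 2.13 for amacrine and horizontal cells, 1.52 to 1.96 for photoreceptors, 1.15 to 1.42 for crystallins, 1.08 to 1.25 for melanin genes, 1.14 to 1.41 for surface epithelium, 1.23 to 1.67 for globins and 1.28 to 1.42 for cell cycle genes. Of 386 SDs of the 30 genes named for their spread, 23 moved by more than 1.5 times, 19 by leaving out a library and 4 by joining alternate rows. These SDs do not include settings in which a gene no longer passed the row filter, such as *pou4f1* without AB12_16. No paired analysis was possible because 1 group was used. Without stated clutches, 4 libraries do not separate biological from technical spread.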

Other observations

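Transcription factor families as annotated in the table were counted after the values were seen, so these counts are a description. The homeobox genes *six7*, *shox*, *lhx1a*, *barhl1a*, *dlx4a*, *barhl2*, *en2b* and *shox2* were among the 463 rows of largest SD and were highest in AB12_16. Of 56 basic helix-loop-helix genes with a mean of at least 5 FPKM, 4 (7.14%) were among these rows, beside 5.01% of all rows, namely *ptf1a*, *tal2*, *hand2* and *tal1*, and 3 of the 4 were highest in AB12_16. Of 69 genes with C2H2 zinc fingers 1 was. Over all 463 rows 189 were highest in AB12_16.

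Of the variable rows without a gene name, 1 is given here as an example chosen after its values were seen. It lies on an alternate contig of chromosome 5 and its description names subunit 4 of the iron-sulfur part of NADH dehydrogenase. It had 2.52, 30.2, 2.42 and 0.906 FPKM, and AB1_19 was the high library.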
